A study of Mus musculus with 2 samples.

Results

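The gastric regional transcription factors are 10 genes (Sox2, Gata4, Gata5, Gata6, Pdx1, Onecut2, Nkx6-3, Barx1, Foxq1 and Klf5), chosen by name from the gene symbol column of the authors' summary workbook. They make up 10 of the 41345 probe sets there, with 1 probe set of 19 to 29 probes for each gene. Their levels were compared between the stomachs of 2 mice, both 12 weeks old, each hybridised to its own Affymetrix array. Control was a mouse with Atp4bCre, in which the promoter of a parietal cell proton pump gene drives Cre recombinase, and the other mouse carried Atp4bCre together with MIST1-LSL, an allele that makes the transcription factor MIST1 once Cre has removed a stop cassette. Both mice came from a mixed background crossed back to C57/B6 for about 10 generations. The series asks what forced MIST1 does in parietal cells, which pump acid into the gastric lumen. The Cre driver acts in parietal cells, whereas several of the 10 factors are known from other cells of the stomach wall.

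The vertebrate stomach is laid out in regions along its length, with a squamous forestomach in the mouse, an acid-secreting corpus, and an antrum that makes gastrin and leads into the duodenum. Transcription factors of the endoderm and of the surrounding mesenchyme set these regions apart in the embryo, and several persist in the adult wall. Sox2 marks the anterior foregut and gastric progenitors, the GATA factors act throughout gut endoderm, Pdx1 marks the antrum, duodenum and pancreas, and Barx1 is a factor of the stomach mesenchyme.

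None of the 10 genes differed 2-fold between the stomachs. Differences are given as MIST1-LSL minus control on the log2 scale, and they ran from -0.31 for Pdx1 to 0.35 for Gata6. Of the 10 genes, 6 were lower in the MIST1-LSL stomach, 3 were higher and 1, Barx1, had the same value on both arrays. Among 17360 named genes above the expression floor, 1.45% differed at least 2-fold in either direction, 0.974% being higher and 0.472% lower, so a count of 0 among 10 genes is near the background. The floor was 4.62 on the log2 scale, the median of all values on both arrays, and a gene was kept when the higher of its levels reached it. With 1 array per genotype there is no estimate of the variation between mice, no test between genotypes could be made, and no p-value is given. Because whole tissue was profiled, fewer cells of a type and less RNA per cell cannot be told apart.

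MIST1 belongs to the basic helix-loop-helix proteins, which bind the E-box, CANNTG. Reference promoters from RefSeq (build GRCm38.p6) are shown for 4 of the 10 genes. Promoters on 1 chromosome were left out by the procedure, so a gene not shown, Gata6 among them, may still have a reference promoter. The 250 bases before the annotated start are given, 5′ to 3′ on the strand of the gene. They let the E-boxes before each start be set beside the gene's difference. Capitals mark E-boxes. They lie at chr3:34649745-34649994 (+) for Sox2, chr2:180334680-180334929 (-) for Gata5, chr5:147269847-147270096 (+) for Pdx1 and chr13:48662786-48663035 (+) for Barx1.
Gata5: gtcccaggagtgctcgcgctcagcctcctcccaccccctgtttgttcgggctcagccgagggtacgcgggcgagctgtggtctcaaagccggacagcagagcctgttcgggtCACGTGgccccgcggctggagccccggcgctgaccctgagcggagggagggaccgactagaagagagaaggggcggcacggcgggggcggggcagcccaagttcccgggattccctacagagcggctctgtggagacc
Sox2: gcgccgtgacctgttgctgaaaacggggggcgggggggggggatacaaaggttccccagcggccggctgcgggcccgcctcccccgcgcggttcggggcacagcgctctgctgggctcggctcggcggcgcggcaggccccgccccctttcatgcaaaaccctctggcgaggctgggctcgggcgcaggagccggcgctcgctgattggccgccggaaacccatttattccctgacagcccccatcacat
Pdx1: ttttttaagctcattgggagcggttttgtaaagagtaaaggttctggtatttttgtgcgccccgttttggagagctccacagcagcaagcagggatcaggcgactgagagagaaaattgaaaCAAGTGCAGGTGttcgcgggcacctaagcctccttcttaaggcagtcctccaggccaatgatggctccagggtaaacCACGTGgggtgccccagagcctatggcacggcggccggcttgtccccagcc
Barx1: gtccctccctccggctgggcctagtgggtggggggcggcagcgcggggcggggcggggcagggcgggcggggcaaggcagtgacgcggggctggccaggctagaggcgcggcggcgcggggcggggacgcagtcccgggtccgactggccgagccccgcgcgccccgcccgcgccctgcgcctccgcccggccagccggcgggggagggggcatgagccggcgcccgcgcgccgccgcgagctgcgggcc
The Pdx1 window held 3 E-boxes: CAAGTG begins 128 bases before the start, CAGGTG 122 bases before it and CACGTG 51 bases before it. The Gata5 window held 1, CACGTG, which begins 138 bases before the start, and the windows of Sox2 and Barx1 held none. The motif reads the same on both strands, and none of these matches overlapped another. Over 32851 reference promoter windows of the same length, 66.2% held at least 1 CANNTG and 6.02% held CACGTG. A form of the E-box linked to MIST1, CATATG, was in 3.46% of the windows and in none of the 4 shown. A match describes letters and shows no binding, and no match says only that these letters are not in the window. Of the 4 shown, the genes with E-boxes differed by -0.31 (Pdx1) and 0.00393 (Gata5), and those without by 0.09 (Sox2) and 0 (Barx1). Gata6, with the widest difference of the 10 genes (0.35), is not among the 4, so these values do not describe all 10.

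Of the 3 GATA zinc finger factors, Gata6 was higher in the MIST1-LSL stomach and the others were close to their control level. Gata4, a factor of gastric and cardiac development that has been reported to bind the proton pump genes, was at 7.36 in the control stomach and 7.30 in the other, a difference of -0.06. Gata5, its relative in gut endoderm and heart, read 6.63 and 6.64, a difference of 0.00393. Gata6, which is needed for early endoderm and is also reported to bind the proton pump genes, read 7.89 in control and 8.24 in MIST1-LSL. Gata6 was thus 0.35 higher, or 1.27-fold, the widest difference of the 10 genes in either direction. The Gata6 difference exceeded the Gata4 difference by 0.41. For scale, the SD of the difference among probe sets that share a gene was 0.203 over 476 genes. This SD is a measure of probe behaviour on these arrays and not of variation between mice. It applies to the difference of a single gene, and a gap between the differences of separate genes varies more widely. The proton pump genes Atp4a (11.53 and 11.43) and Atp4b (12.13 and 12.11), measured beside them, had differences of -0.10 and -0.02.

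**Figure D1:**
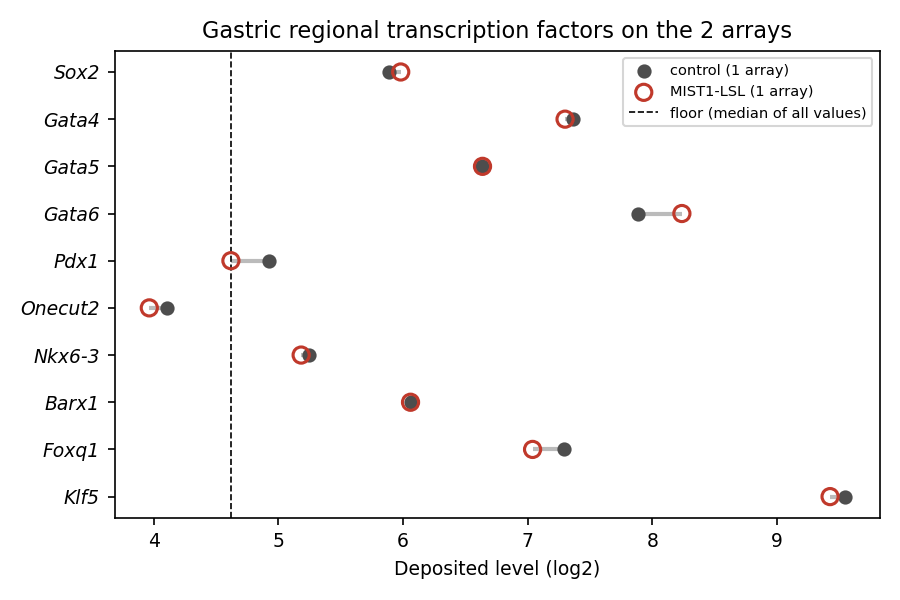
Deposited levels on the log2 scale (horizontal axis) of the 10 gastric regional transcription factors (rows), with 1 filled point for the control array and 1 open point for the MIST1-LSL array. The points lie close together in every row, the widest gap is that of Gata6 (7.89 and 8.24), Onecut2 lies below the floor of 4.62 on both arrays, and levels of different genes cannot be compared because their probes differ.

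The homeodomain factors of the antrum and duodenum were lower or nearly level. Pdx1, which is required for the pancreas and for the normal antrum and duodenum, read 4.93 in control and 4.62 in MIST1-LSL, the latter just below the floor. It differed by -0.31, or 1.24-fold lower. Nkx6-3, a homeobox gene of the mouse antrum that is needed for its gastrin-making cells, read 5.25 and 5.18, a difference of -0.07. Onecut2, which pairs a cut domain with a homeodomain and is expressed in liver and duodenum, read 4.11 and 3.97. Both Onecut2 values were below the floor, so its difference of -0.14 concerns signal not shown to exceed background. Gast, the gastrin gene, read 6.31 and 6.06, a difference of -0.26. Sst, the somatostatin gene, read 10.39 and 10.50, 0.10 higher.

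Barx1, the homeobox gene of the stomach mesenchyme, read 6.06 on both arrays, with identical values in every deposited digit. In the mouse embryo Barx1 acts through the secreted Wnt inhibitors Sfrp1 and Sfrp2. Sfrp1 read 5.68 and 5.78, a difference of 0.10. Sfrp2 read 5.04 and 5.92, so it was 0.88 higher, or 1.84-fold, short of a 2-fold difference. On the same arrays all 7 smooth muscle markers were at least 2-fold higher in MIST1-LSL, and their summed intensity was 1441 in control and 3696 in MIST1-LSL, with none below the floor on both arrays. The part of the smooth muscle markers in the Sfrp2 difference was not tested.

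An identical value is not a finer measurement of no difference. Of all probe sets, 1476 (3.57%) were identical on both arrays, while 503 lay within 0.01 of 0 without being identical. In bins of 0.001, the bin at 0 held 1496 probe sets and the other bins within 0.1 of 0 held 12 to 129. Of the genes on the lists used here, Hnf4a, Onecut1 and Pax4 were also identical on both arrays. Non-zero differences recurred too: 213 of them were each shared by at least 10 probe sets, together 3964. The Sox2 difference recurred within 1.5e-05 in 95 other probe sets and that of Pdx1 in 4, and 1 other probe set, assigned to the syntrophin gene Sntg2, had the levels of Pdx1 on both arrays. The difference of Gata6 recurred in 1 other probe set and that of Foxq1 in none. The values of Barx1 and Sox2 thus lie at differences that many other probe sets share.

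**Figure D2:**
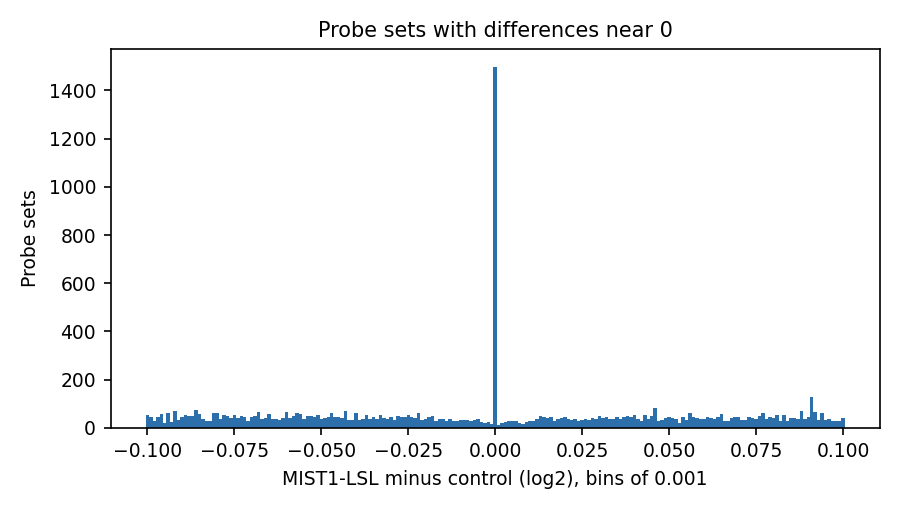
Number of probe sets (vertical axis) by the log2 difference, MIST1-LSL minus control (horizontal axis, bins of 0.001), for differences within 0.1 of 0. The bin at 0, which holds Barx1, contains 1496 probe sets, against 12 to 129 in the other bins.

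The factors of epithelial progenitors and pit cells also lay close to 0 or below it. Sox2, an HMG-box factor that is kept in progenitor cells of the adult stomach and in the forestomach, read 5.89 and 5.98, a difference of 0.09. Klf5, a zinc finger factor of dividing gut epithelium and of basal squamous cells, read 9.55 and 9.43, a difference of -0.12. Foxq1, a forkhead factor required in the mouse for the mucin Muc5ac in surface pit cells, read 7.29 in control and 7.04 in MIST1-LSL. Foxq1 thus differed by -0.25, or 1.19-fold lower. Muc5ac differed in the same direction, with 12.04 and 11.30, a difference of -0.74 that also fell short of 2-fold.

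Set against all genes, the 10 factors lay within the bulk of the differences. Over the 17360 genes above the floor the median difference was -0.03, the middle 50% lay between -0.21 and 0.17, and the middle 95% between -0.63 and 0.68. Of the 10 factors 9 passed the floor, 8 of them on both arrays, and the exception was Onecut2. The median difference of these 9 was -0.06, as was that of all 10. All 9 were inside the middle 95% of genes and 6 were inside the middle 50%. The others were Gata6 above that range and Pdx1 and Foxq1 below it, and these were also the 3 genes whose difference exceeded the SD of 0.203 between probe sets of 1 gene. Pdx1 passed the floor through the control array alone, so its place below that range is partly set by the filter. The spread of all genes was wider at low levels, with a middle 95% from -0.75 to 0.76 in the lowest of 4 equal groups of genes by mean level, which holds Pdx1. In the highest of these groups, which holds Gata4, Gata6, Foxq1 and Klf5, it ran from -0.54 to 0.60.

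**Figure D3:**
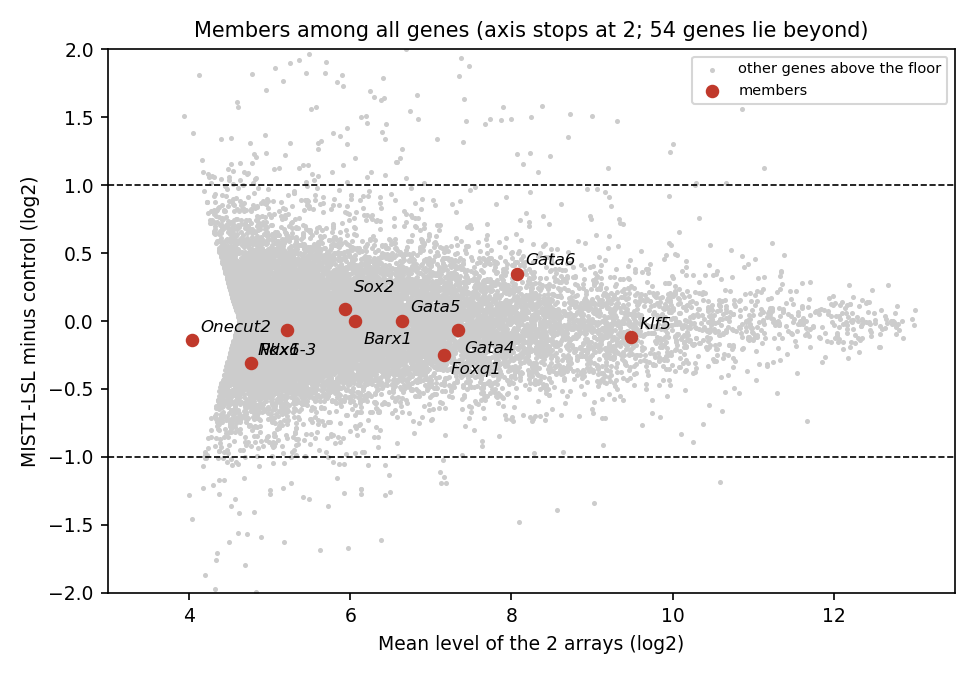
Log2 difference, MIST1-LSL minus control (vertical axis), against the mean level of both arrays (log2, horizontal axis), with the 10 factors as labelled large points and other genes above the floor as small points. All 10 lie between the dashed lines at a 2-fold difference, and 54 genes with differences beyond 2 are off the axis.

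Other patterning genes, taken from 5 lists by name, gave the same count. Of 58 genes 45 passed the floor, none differed 2-fold in either direction, near the 1.45% of all genes, and their median difference was 0. Among the other GATA factors and the FOG cofactors, all 4 above the floor were lower, with a median of -0.22 that came to -0.11 with no floor and to -0.09 under a floor of 5.84, which of these 4 Zfpm1 alone passed. Gata1, a blood and mast cell factor, differed by -0.54 (4.89 and 4.36), Gata3, a factor of T cells and squamous epithelium, by -0.36 (4.84 and 4.48) and the cofactor gene Zfpm1 by -0.09. Gata1 and Gata3 passed the floor through the control array alone, which favours a lower value in MIST1-LSL. Of 16 endoderm factors above the floor, 7 were higher, 8 lower and 1 identical, with a median of -0.03. Sox17, a factor of endoderm and endothelium, was 0.67 higher (4.42 and 5.08, the first below the floor). The epithelial ETS factor Elf3 was 0.50 higher (7.05 and 7.54) and the intestinal homeobox gene Cdx2 0.40 higher (4.67 and 5.08).

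Mesenchymal patterning genes, the company of Barx1, had a median of 0.10, with 8 of 13 above 0. Sfrp2 was furthest above control in this list. Foxf1, a forkhead factor of gut mesenchyme, differed by -0.77 (5.21 and 4.43, the second below the floor) and Nkx3-2, which acts in the embryonic pylorus and stomach wall, by -0.41 (5.06 and 4.65). Squamous factors had a median of 0.13, with 5 of 7 above 0. Pitx1, Pax9 and Trp63, the last a factor of basal squamous cells, were 0.29, 0.26 and 0.25 higher. Only 5 of 11 endocrine factors passed the floor, with a median of -0.0081. Nkx6-2, a relative of Nkx6-3, differed by -0.50 (5.53 and 5.03) and the endocrine progenitor factor Insm1 by -0.38 (5.52 and 5.14).

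**Figure D4:**
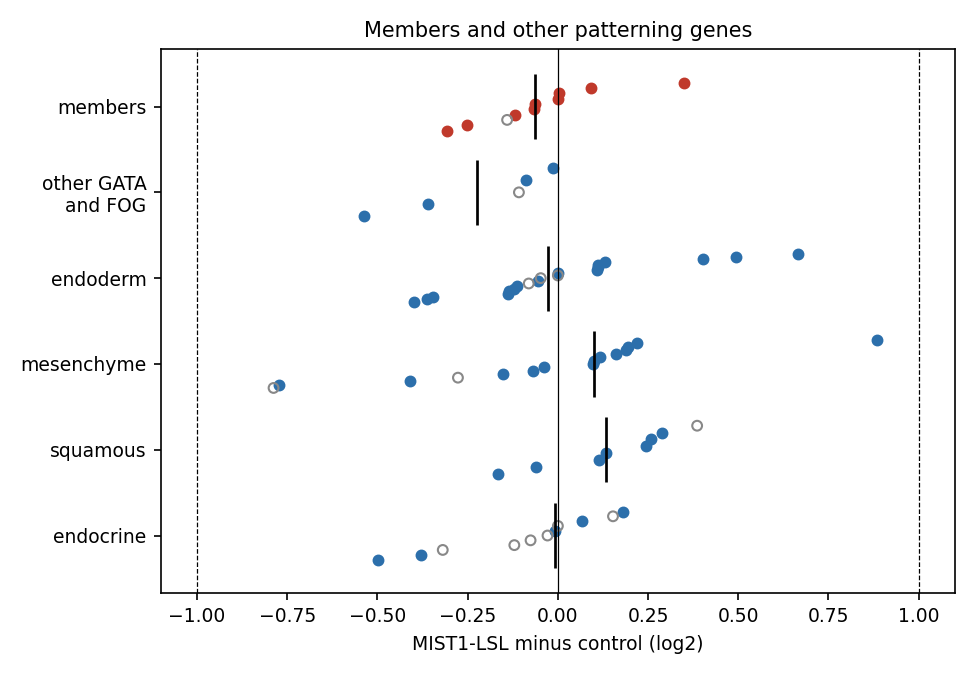
Log2 difference, MIST1-LSL minus control (horizontal axis), of each gene of the 10 factors and of 5 lists of other patterning genes (rows). Filled points passed the floor on at least 1 array, open points did not, the vertical bars are medians of the filled points (-0.06 for the 10 factors), and no point reaches the dashed lines at a 2-fold difference.

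The regions these factors belong to were checked with marker genes. The sample labels name the corpus and the series design names whole stomachs, and markers of several regions were present on both arrays. The summed intensity of 8 forestomach markers was 6302 in control and 6292 in MIST1-LSL, a sum in which Sprr1a weighs most. Of the 8, 6 were higher and 2 lower, none by 2-fold, with a median of 0.20, beside a Sox2 difference of 0.09. Krt15, a basal keratin, was 0.90 higher, and Sprr1a (11.94 and 11.85) and Sprr3 (10.24 and 10.27) were high on both arrays. The 7 corpus gland markers were all lower, none by 2-fold, with a median of -0.22 and summed intensities of 17328 and 15577. Their differences ran from -0.77 (Aqp4) to -0.02 (Atp4b). Aqp4 (4.73 and 3.96) passed the floor through the control array alone, which favours a lower value in MIST1-LSL. The 4 antral markers, to be read beside Pdx1 and Nkx6-3, had summed intensities of 1824 and 2491. Sst weighs most in both sums, but Bpifb1 differed most between the arrays (1.51, beside 0.10 for Sst). Among the 4 markers, 3 were higher and 1, Gast, was lower (-0.26). Of these only Bpifb1, a secreted epithelial protein, was 2-fold higher, with 8.24 and 9.75, and Gast, the defining antral hormone, was not. Of 8 intestinal markers 1, the alkaline phosphatase gene Alpi, was 2-fold higher (5.04 and 6.08). The summed intensities were 1511 and 1590, a sum in which Fabp2 weighs most. Of the 6 above the floor, 3 were higher and 3 lower. Fabp2 differed by -0.10 and Fabp1 by 0.64. Sis and Lct were below the floor on both arrays.

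Pancreatic acinar transcripts stood far higher in the MIST1-LSL stomach, and Pdx1, a factor of the pancreas as well as the antrum, was not. Of 7 acinar markers 6 were at least 2-fold higher. Their summed intensity was 130.8 in control and 7994 in MIST1-LSL, and 5 of the 7 (Pnlip, Prss2, Cpb1, Cela3b and Ptf1a) were below the floor in control. Ptf1a, the acinar transcription factor, differed by 0.88 (4.05 and 4.93). The part of the smooth muscle and acinar markers in the differences of the 10 factors was not tested. Bhlha15, the gene of MIST1, read 5.26 in control and 5.30 in MIST1-LSL on 19 probes. Where in the transcript those probes lie is not stated, so this value cannot settle whether the transgene was on.

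**Figure D5:**
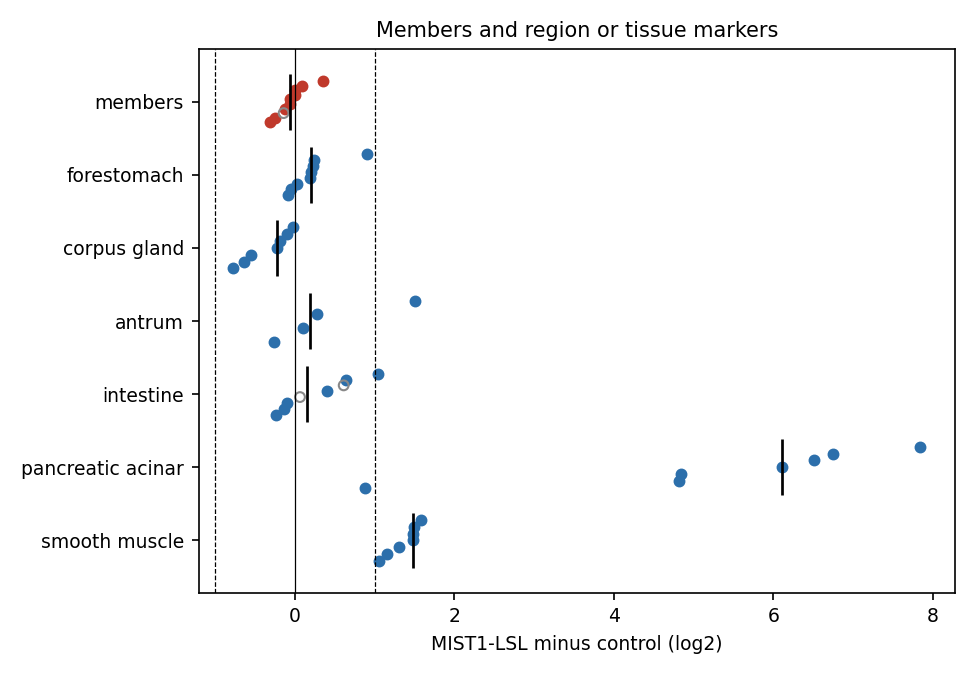
Log2 difference, MIST1-LSL minus control (horizontal axis), of the 10 factors and of markers of stomach regions and other tissues (rows), with medians as vertical bars and a 2-fold difference as dashed lines. Points are filled where the gene passed the floor. All 7 smooth muscle and 6 of 7 pancreatic acinar markers lie beyond 2-fold, while all 10 factors lie within it.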

How the data were processed

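Total RNA of 1 stomach per genotype was amplified, labelled with biotin and hybridised, per the labels' protocols, and amplification can change relative transcript levels. Per the submitters' processing notes RMA and Partek were used, while their versions, settings and the genome build are not stated in what was used here. The deposited workbook holds log2 levels and the linear intensity made from them by the authors. The deposited series table also holds log2 levels, which for the MIST1-LSL array lay within 0.005 of the workbook's. The same gap was not computed for the control array. The array medians were 4.64 and 4.60, and the number of arrays limits the precision.

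Genes were named from the assignment column: 21749 probe sets by accession and 6111 by symbol in RefSeq (GRCm38.p6), 4611 kept the file's name and 8874 had none. Where a gene had several probe sets, that with the highest mean over both arrays stood for it. The size rule was 2-fold and no rescaling was applied. All 10 factors were named, with every gene linked to them, and from each other list any gene past 2-fold and the 3 largest differences above the floor, of which 1 is not reported here. Markers were named for high levels or for being below the floor. Krt15, Aqp4, Alpi, Pnlip, Prss2, Cela3b, Ptf1a, Sntg2, Hnf4a, Onecut1, Pax4, Sox3, Klf15 and Hoxb5 were named after their values were seen. The 10 factors and all lists were chosen with earlier results of these data known. The procedure was tested on simulated data, in which the added changes were larger than 2-fold and in genes well above the floor. That test does not bear on differences as small as those of the 10 factors, or on identical values. Alternatives covered scaling, source table, floor, probe set and size rule. No measure of likeness between genes was computed, because 2 arrays give 1 difference per gene. Python 3.11.15, numpy 2.4.6, pandas 2.3.3 and statsmodels 0.14.6 were used.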

Additional observations from a re-analysis of the deposited data

How the results depend on the processing

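With 1 probe set per gene, the other floors and probe-set rules cannot change a factor's difference. The other 4 alternatives (quantile normalization, median centring, loess and the series table) could, and their 40 values lay within the SD of 0.203 of those reported, none reaching 1.5-fold. The rescalings shifted the factors by only 0.0034 to 0.040, so staying within that SD says little. The Gata6 difference ranged from 0.35 to 0.39, that of Pdx1 from -0.31 to -0.27 and that of Foxq1 from -0.25 to -0.21. Only Barx1 took both signs, from -0.0012 to 0.04. The median of the factors above the floor ranged from -0.06 to 0, the latter with the floor at the 75th percentile. Counts over all genes depended on the floor and the size rule: 359 were higher and 198 lower with no floor, 42 lower with the floor at the 75th percentile, 607 and 576 under a 1.5-fold rule, and 67 and 24 under a 3-fold rule. Fewer or more genes pass by the construction of these rules. Of 240 values for the other lists, 11 moved, 9 of them counts under another size rule. The other 2 came with the higher floor, where fewer genes enter: the mesenchymal median was 0.54 and the acinar median 6.31. No paired analysis was possible because each genotype has 1 array. Levels near the floor, as for Pdx1 and Onecut2, limit what can be measured.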

Other observations

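The wider gene families of the factors were looked at by symbol. Of 142 genes of the Sox, Gata, Klf, Fox, Onecut, Nkx and Hox families, 88 passed the floor and none differed 2-fold in either direction, near the 1.45% of all genes. Of these 88, 24 are among the 10 factors or the other patterning genes described above. The medians were -0.06 for 15 Sox genes, -0.06 for 15 Klf genes, -0.06 for 34 Fox genes and -0.16 for the 10 of 39 Hox genes above the floor. Furthest below control was Sox3, a relative of Sox2, at -0.95 (5.11 and 4.16, the second below the floor), and furthest above it was Klf15 at 0.71 (5.06 and 5.77), both picked after their values were seen. Among Hox genes, Hoxb5, also picked after its value was seen, was 0.68 higher (3.99 and 4.66, the first below the floor).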
